A study of Mus musculus with 10 samples.

Results

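The genes described here are the nuclear genes of mitochondrial protein import and of mitochondrial protein quality control. They were chosen by name: every entry whose symbol starts with Timm or Tomm followed by a digit, together with Pmpca and Pmpcb, was taken as import, and the chaperones Hspd1, Hspe1, Hspa9, Trap1 and Clpb, the proteases Lonp1, Clpp, Clpx, Afg3l2, Spg7, Yme1l1, Oma1 and Htra2, and the prohibitins Phb and Phb2 were taken as quality control. This gave 43 of the 50600 gene entries, 28 of import and 15 of quality control. Of these, 41 had enough counts to be tested. Tomm20l had a total count of 0 over the 10 libraries and Timm8a2 a total count of 1.

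Almost all mitochondrial proteins are encoded in the nucleus and made in the cytosol. They enter through the TOM pore of the outer membrane, and then pass through TIM23 into the matrix or, for carrier proteins, through TIM22 into the inner membrane, with small TIM chaperones guiding hydrophobic proteins across the space between. In the matrix the presequence is cut off by a processing peptidase, mtHsp70 and the Hsp60/Hsp10 chaperonin fold the protein, and AAA proteases and the ClpXP and Lon proteases remove what is damaged. The prohibitins form rings in the inner membrane that hold its matrix-facing AAA protease. Leukemia cells are known to depend on several of these steps, among them ClpP and Clpb in human acute myeloid leukemia (AML).

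RNA was sequenced from 10 C57BL/6 mice in 4 groups, with 1 library per mouse. WT was cKit+ bone marrow of 2 female mice. The Cbfb::MYH11 tumors were spleens of 2 female mice labelled Mx+ and Hygr+, that is, Mx1-Cre mice in which the fusion was switched on by Poly IC at postnatal day 45, and their cells were labelled cKit+ in mouse 27 and cKit_ in mouse 30. The MLL::AF9 tumors were spleens of 3 untreated MLL-AF9 +/- mice, males 2 and 42 and female 47. The MLL::ENL tumors were spleens of 3 untreated mice named NO, RL and L, NO and RL female and the sex of L not labelled, in which stem and progenitor cells carrying a retroviral fusion had been transplanted with WT marrow into irradiated hosts. All MLL tumors carried the selection label Mac1/Gr1/cKIT. Tissue, selection, Poly IC and the way the leukemia was made go with the group, so their part in any difference cannot be told apart from that of the fusion. The methods of the study give Poly IC to littermate controls as well, without saying whether the WT mice sequenced here were such controls. Fewer cells of a type and less RNA per cell cannot be told apart in such bulk samples.

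The libraries held between 12134911 counts (MLL::ENL NO) and 20510567 counts (WT 2). Levels between libraries are given in CPM, the count relative to the library total after scaling by TMM (trimmed mean of M values), and levels between genes in TPM, which also divides by transcript length. Kit, the receptor used for selection, was at 65.7 and 88.7 CPM in WT, 187 to 289.7 CPM in Cbfb::MYH11 and 31.3 to 119 CPM in the 6 MLL tumors, while Itgam, which encodes the Mac1 integrin chain, was at 458 to 643 CPM in WT, 6.04 to 10.97 CPM in Cbfb::MYH11 and 342 to 1004 CPM in MLL tumors. The WT libraries, labelled cKit+, thus lay within the range of the MLL tumors for Itgam, and for Ly6g, the Gr1 antigen of neutrophils, they were at 204 to 333 CPM against 0.632 to 317 CPM in MLL tumors. The insert lengths fell into 2 classes: WT 2, Cbfb::MYH11 30, MLL::AF9 42 and MLL::ENL RL had longer fragments (262 to 272 bases taken off the length to give the effective length) and the other 6 libraries shorter ones (199 to 224 bases). Each group thus had 1 library of the longer class.

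Among the members, Hspe1, the Hsp10 lid of the mitochondrial chaperonin, had the highest mean level over the 10 libraries, at 253 TPM. It was followed by Phb2 at 216 TPM, Tomm6, a small subunit of the TOM pore, at 203 TPM, Timm23, the channel of the presequence translocase, at 162 TPM, and Tomm5, another small TOM subunit, at 149 TPM. Of the 41 members tested, the lowest levels were those of Tomm6os, a transcript opposite Tomm6, at 0.23 TPM and Oma1, a stress-activated inner membrane protease, at 10.5 TPM. Tomm6os overlaps Tomm6 by 777 bases, and whether the counting used strand is not given in the sources used here, so its reads may come from Tomm6.

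Among the 5 comparisons made, the one between the leukemia models called the most members. In the 6 MLL tumors compared with the 2 Cbfb::MYH11 tumors, 17 of 41 members (41.5%) were lower and 0 were higher by edgeR, and DESeq2, limma and an unadjusted p under 0.05 gave 0 higher as well. Over all 14875 genes tested, 12.4% were lower and 13.2% higher in the same comparison. The 17 were 8 of 26 import members (30.8%) and 9 of 15 quality control members (60.0%), and whether import and quality control differ from each other was not tested. The median log2 fold change was -0.62 over import, -0.93 over quality control and 0.08 over all genes. For 23 of the 41 members (56.1%) all 6 MLL libraries lay below both Cbfb::MYH11 libraries, against 20.4% of all genes tested, and these 23 include each of the 17.

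**Figure D1:**
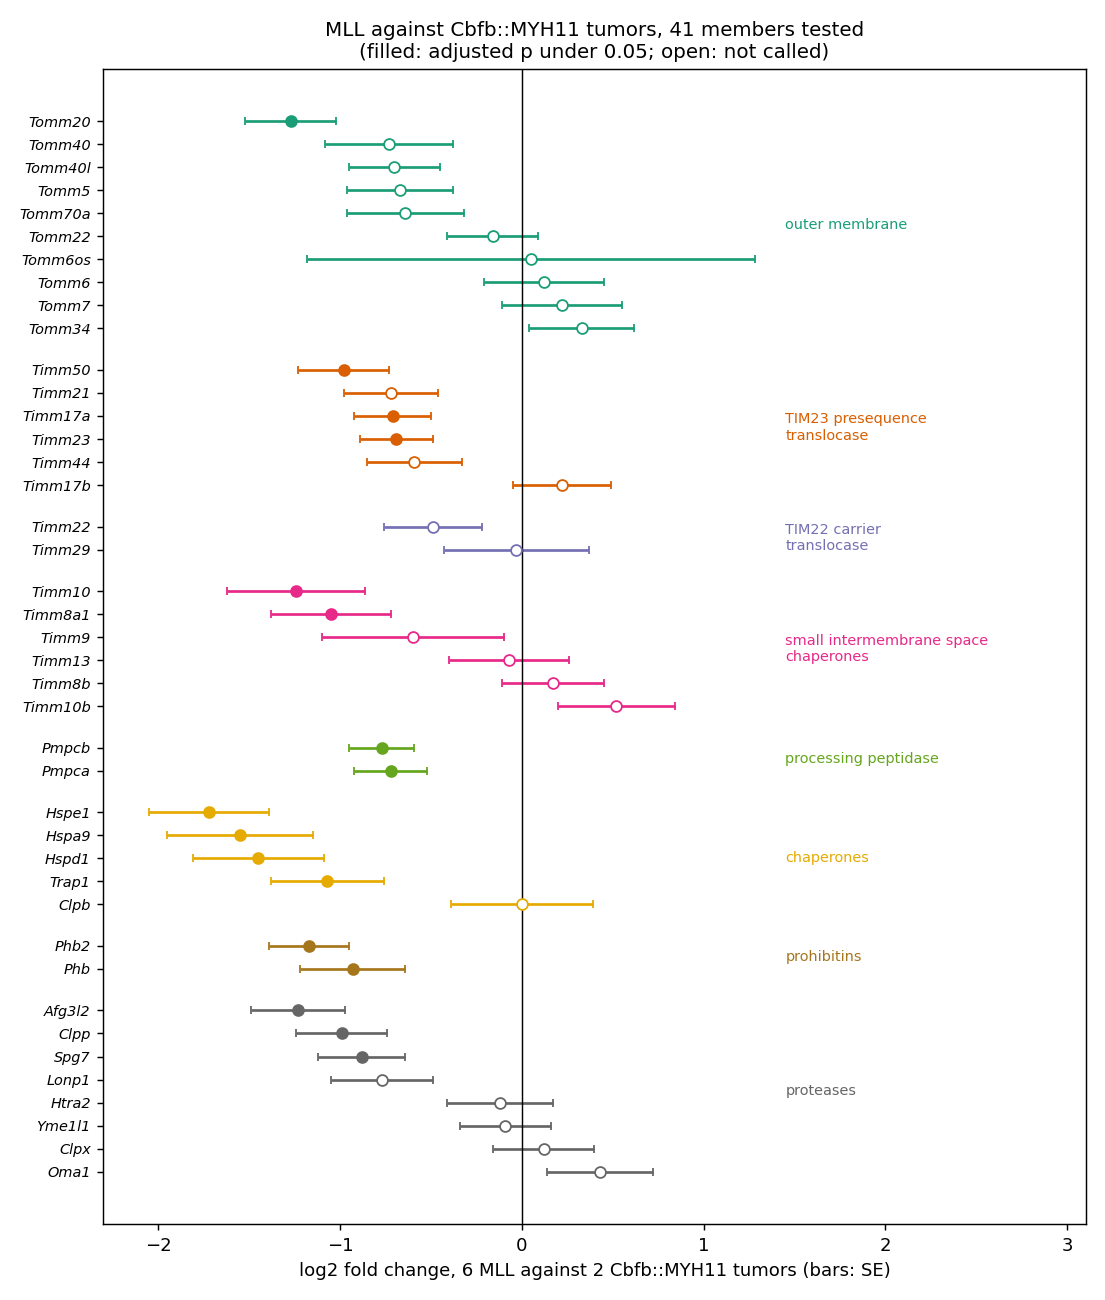
Log2 fold change (horizontal axis, bars are the standard error) of the 41 members tested, 6 MLL against 2 Cbfb::MYH11 tumors, by role from the outer membrane at the top to the proteases at the bottom. Filled points are the 17 members at an adjusted p under 0.05, all of them left of 0, and Hspe1 lies farthest left at -1.72.

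Of the chaperones, 4 of 5 were lower in MLL tumors, where 12.4% of all genes were lower. Hspe1 was at 298 and 172 CPM in WT, 247 and 288 CPM in Cbfb::MYH11 30 and 27, 101, 71.0 and 87.1 CPM in MLL::AF9 2, 47 and 42, and 40.5, 93.9 and 93.5 CPM in MLL::ENL NO, RL and L. Every MLL library lay below every WT and Cbfb::MYH11 library in CPM. Over all genes, all 6 MLL libraries lay below both WT libraries in 14.5% and below both Cbfb::MYH11 libraries in 20.4%. The log2 fold change of MLL against Cbfb::MYH11 was -1.72 ± 0.33 (SE), a 3.3-fold lower level (adjusted p = 0.0045). Hspd1, the Hsp60 barrel that Hspe1 closes, was at 281 and 336 CPM in WT, 367 and 397 CPM in Cbfb::MYH11, 64.2, 175 and 151 CPM in MLL::AF9, and 94.5, 192 and 163 CPM in MLL::ENL. The groups again did not overlap, with a log2 fold change of -1.45 ± 0.36 (SE, adjusted p = 0.016) against Cbfb::MYH11.

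Hspd1 and Hspe1 lie head to head on chromosome 1 (mm10, 55077835 to 55088243 on the minus strand and 55088132 to 55091307 on the plus strand) and their entries overlap by 112 bases. The windows from 250 bases before to 50 bases after a start site (RefSeq, GRCm38.p6) are shown for this pair. Both genes were called lower in MLL than in Cbfb::MYH11 tumors, but their ratio was not fixed within the MLL tumors, as given below. Capitals mark a match to the heat shock element GAANNTTC in the Hspe1 window (chr1:55087898-55088197, plus strand) and to the E-box CACGTG in a Hspd1 window (chr1:55088194-55088493, minus strand). The 8 bases of the Hspe1 match, 84 bases before its start, are the same that lie 139 bases before another annotated start of Hspd1.
Hspe1: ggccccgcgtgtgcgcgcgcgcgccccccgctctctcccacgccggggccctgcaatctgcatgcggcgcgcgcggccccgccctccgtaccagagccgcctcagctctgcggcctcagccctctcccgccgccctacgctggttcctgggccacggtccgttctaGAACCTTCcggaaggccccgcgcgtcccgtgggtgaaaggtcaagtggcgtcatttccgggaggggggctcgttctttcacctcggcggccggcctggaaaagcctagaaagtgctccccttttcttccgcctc
Hspd1: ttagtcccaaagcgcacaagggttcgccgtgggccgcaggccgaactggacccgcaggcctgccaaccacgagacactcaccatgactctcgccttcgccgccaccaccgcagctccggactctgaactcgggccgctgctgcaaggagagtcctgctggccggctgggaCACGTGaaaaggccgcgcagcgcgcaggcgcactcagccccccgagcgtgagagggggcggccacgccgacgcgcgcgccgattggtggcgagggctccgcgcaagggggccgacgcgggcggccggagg

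Hspa9, the mitochondrial Hsp70 that pulls proteins through TIM23 and folds them, was at 199 and 307 CPM in WT, 334 and 494 CPM in Cbfb::MYH11, 62.7, 173 and 165 CPM in MLL::AF9, and 93.6, 200.3 and 156 CPM in MLL::ENL. Here MLL::ENL RL reached the level of WT 1, but every MLL library lay below both Cbfb::MYH11 libraries, and the log2 fold change between them was -1.55 ± 0.40 (SE, adjusted p = 0.018). Trap1, the mitochondrial Hsp90, was at 88.9 and 103 CPM in WT, 119 and 146 CPM in Cbfb::MYH11, 45.3, 77.8 and 66.6 CPM in MLL::AF9, and 35.2, 80.5 and 72.7 CPM in MLL::ENL, with a log2 fold change of -1.07 ± 0.31 (SE, adjusted p = 0.031). For Hspd1, Hspa9 and Trap1 the lowest libraries were MLL::AF9 2 and MLL::ENL NO. Clpb, a disaggregase of the space between the membranes, was the chaperone that did not pass, at 25.04 and 38.7 CPM in WT, 37.7 and 16.2 CPM in Cbfb::MYH11, and 18.04 to 38.9 CPM in MLL tumors.

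**Figure D2:**
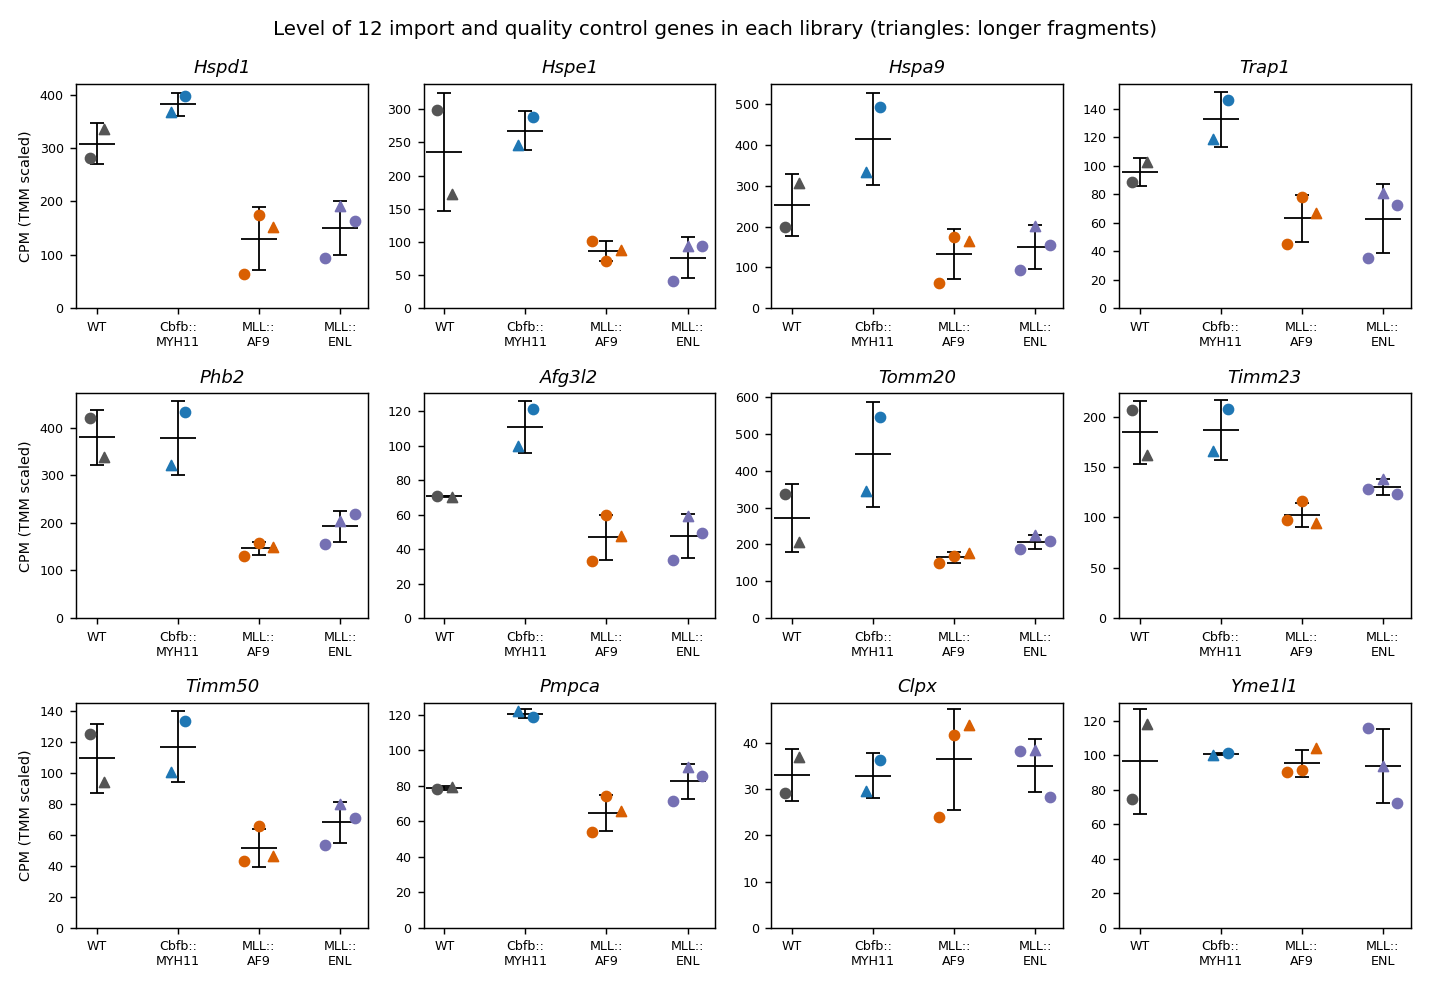
TMM-scaled CPM (vertical axis, from 0) of 12 members in each of the 10 libraries, by group, where triangles are libraries with longer fragments and the lines give the group mean and SD (n = 2, 2, 3 and 3). For Hspd1 and Hspe1 all 6 MLL points lie below all WT and Cbfb::MYH11 points, whereas Clpx and Yme1l1 overlap in all groups.

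Both prohibitins were lower in MLL than in Cbfb::MYH11 tumors, where 12.4% of all genes were lower. Phb2 was at 421 and 338 CPM in WT, 323 and 433 CPM in Cbfb::MYH11, 131, 158 and 150.1 CPM in MLL::AF9, and 156, 204 and 218 CPM in MLL::ENL, so that the MLL and the other libraries were far apart. The log2 fold change against Cbfb::MYH11 was -1.17 ± 0.22 (SE, adjusted p = 0.0048). Phb, its partner in the ring, was at 204 and 155 CPM in WT, 182 and 209 CPM in Cbfb::MYH11, 65.1, 125 and 89.5 CPM in MLL::AF9, and 79.1, 120.3 and 138 CPM in MLL::ENL, with a log2 fold change of -0.93 ± 0.29 (SE, adjusted p = 0.040). For both, every MLL library lay below every WT and Cbfb::MYH11 library in CPM. The mean TPM of Phb did not separate MLL from WT, at 96.4 (SD 3.49) in WT, 97.2 (SD 68.1) in MLL::AF9 and 93.7 (SD 35.7) in MLL::ENL. The Phb2 window (chr6:124712039-124712338, plus strand, GRCm38.p6) is shown because Phb2 was the one member also called against WT, and it holds no match to any of the 4 motifs searched, hence no capitals.
Phb2: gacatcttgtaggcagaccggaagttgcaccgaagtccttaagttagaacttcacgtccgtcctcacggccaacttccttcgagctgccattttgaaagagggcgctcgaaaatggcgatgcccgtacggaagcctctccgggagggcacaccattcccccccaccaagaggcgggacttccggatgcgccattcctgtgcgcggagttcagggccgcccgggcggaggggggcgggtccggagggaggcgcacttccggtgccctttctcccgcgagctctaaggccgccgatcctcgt

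Of the proteases, 3 of 8 were lower in MLL tumors, where 12.4% of all genes were lower. Afg3l2, the catalytic subunit of the matrix-facing AAA protease, was at 70.9 and 70.5 CPM in WT, 99.97 and 121 CPM in Cbfb::MYH11, 33.3, 59.7 and 47.4 CPM in MLL::AF9, and 33.8, 59.0 and 49.4 CPM in MLL::ENL, with a log2 fold change of -1.23 ± 0.26 (SE, adjusted p = 0.0081) against Cbfb::MYH11. Spg7, or paraplegin, which joins Afg3l2 in that protease, was at 39.4 and 43.2 CPM in WT, 60.1 and 87.2 CPM in Cbfb::MYH11, 43.4, 47.1 and 35.2 CPM in MLL::AF9, and 28.7, 42.6 and 43.3 CPM in MLL::ENL, and its log2 fold change was -0.88 ± 0.24 (SE, adjusted p = 0.023). For Spg7 the MLL libraries overlapped the WT libraries, and it was the Cbfb::MYH11 libraries that lay above both.

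Clpp, the peptidase of ClpXP, was at 51.3 and 44.3 CPM in WT, 45.3 and 59.9 CPM in Cbfb::MYH11, 18.9, 27.7 and 20.5 CPM in MLL::AF9, and 23.3, 32.4 and 38.01 CPM in MLL::ENL, with a log2 fold change of -0.99 ± 0.25 (SE, adjusted p = 0.017). Clpx, the unfoldase that feeds Clpp, was at 29.2 and 37.0 CPM in WT, 29.5 and 36.4 CPM in Cbfb::MYH11, and 24.0 to 43.9 CPM in MLL tumors, and did not pass (log2 fold change 0.12 ± 0.28, adjusted p = 0.79). The subunits of this protease thus had unlike values across the groups. Lonp1, the Lon protease of the matrix, was at 100.3 and 129.5 CPM in WT, 117 and 182 CPM in Cbfb::MYH11, and 52.7 to 111 CPM in MLL tumors, which did not pass (log2 fold change -0.77 ± 0.28, adjusted p = 0.069). The proteases of the space between the membranes and the inner membrane, Yme1l1, Oma1 and Htra2, had log2 fold changes of -0.09, 0.43 and -0.12, none of which passed.

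On the import side, the outer membrane had 1 of 10 members tested called lower, where 12.4% of all genes were lower. Tomm20, the receptor that first binds presequences, was at 338 and 206 CPM in WT, 344 and 547 CPM in Cbfb::MYH11, 148, 168 and 178 CPM in MLL::AF9, and 187, 225 and 209.9 CPM in MLL::ENL, with a log2 fold change of -1.27 ± 0.25 (SE, adjusted p = 0.0059) between MLL and Cbfb::MYH11. All MLL libraries lay below both Cbfb::MYH11 libraries, and MLL::ENL RL and L lay above WT 2. The Tomm20 window (chr8:126945872-126946171, minus strand, GRCm38.p6) is shown with its E-box in capitals, 126 bases before the start site.
Tomm20: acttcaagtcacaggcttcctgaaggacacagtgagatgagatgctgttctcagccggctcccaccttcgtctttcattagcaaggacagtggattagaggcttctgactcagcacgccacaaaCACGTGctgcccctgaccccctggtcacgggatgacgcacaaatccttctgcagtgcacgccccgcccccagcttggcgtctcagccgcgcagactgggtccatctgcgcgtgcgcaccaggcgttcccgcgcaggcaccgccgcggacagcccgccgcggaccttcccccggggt

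The TPM of Tomm20 gives another picture than its counts. RSEM gave it an effective length between 877 bases in MLL::AF9 2 and 4162 bases in Cbfb::MYH11 30, and its TPM ran from 43.4 in WT 2 to 378 in Cbfb::MYH11 27, so that MLL::AF9 47 (176.5 TPM), MLL::ENL L (128.4 TPM) and MLL::AF9 2 (119.9 TPM) were above Cbfb::MYH11 30 (88.5 TPM). All 4 libraries of the longer fragment class had an effective length of 3815 bases or more, and the other 6 had 2053 bases or less. The part of fragment length in the TPM of Tomm20 was not tested. Against WT, mean TPM and CPM parted for other called members too. Mean TPM of Afg3l2 was 16.4 in WT, 18.6 in MLL::AF9 and 17.8 in MLL::ENL. Trap1, Pmpcb and Timm17a were likewise above WT in TPM but below it in CPM. In mean TPM, Clpp, Timm50, Timm23 and Phb lay on both sides of WT, and Spg7 and Pmpca above it. Hspe1, Hspd1, Hspa9, Phb2, Timm10 and Timm8a1 were below WT in both measures. Every called member had a lower mean TPM in both MLL models than in Cbfb::MYH11.

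**Figure D3:**
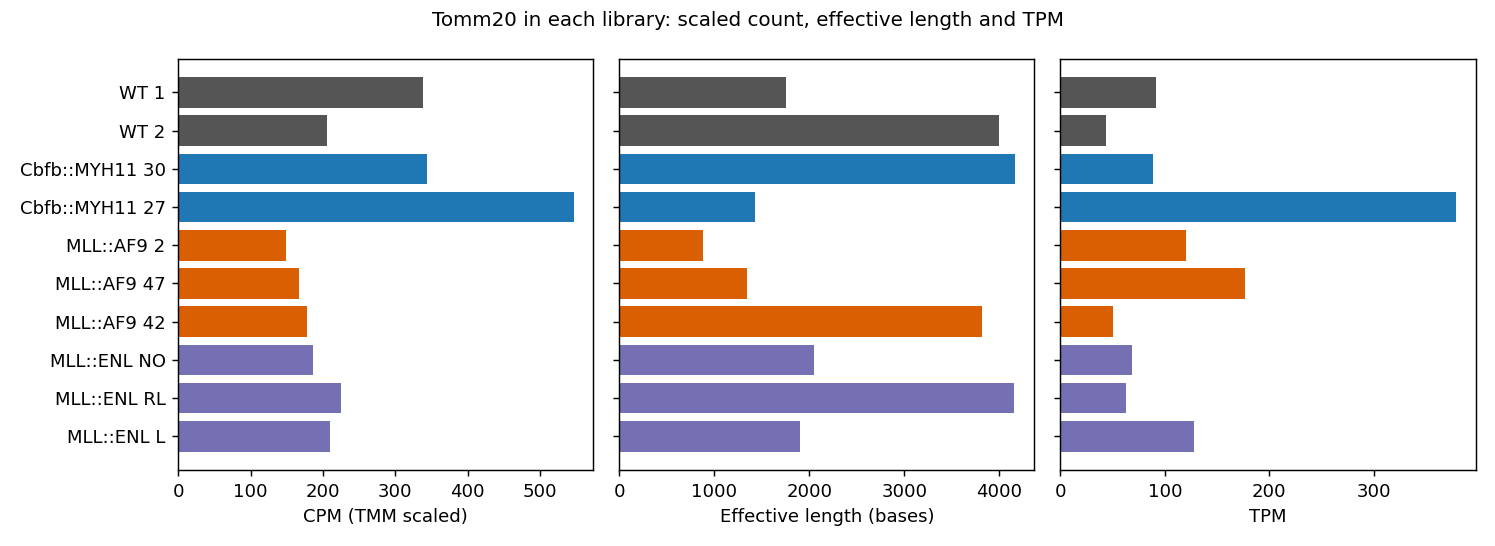
Tomm20 in each of the 10 libraries as TMM-scaled CPM, effective length in bases and TPM (bars from 0, colored by group). The bars of effective length are 3815 bases or more in WT 2, Cbfb::MYH11 30, MLL::AF9 42 and MLL::ENL RL, and the order of libraries in TPM differs from that in CPM.

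The pore itself, Tomm40, was at 95.9 and 113 CPM in WT, 114 and 129 CPM in Cbfb::MYH11, and 30.3 to 108 CPM in MLL tumors. All MLL libraries lay below both Cbfb::MYH11 libraries, but the spread within MLL was wide and the log2 fold change of -0.73 ± 0.35 (SE) did not pass (adjusted p = 0.16). Tomm22, the central receptor, and Tomm70a, the receptor for carrier proteins, had log2 fold changes of -0.16 and -0.64 and did not pass. Those of the small subunits Tomm5, Tomm6 and Tomm7 were -0.67, 0.12 and 0.22, with none passing. Tomm34, a cytosolic cochaperone, had a log2 fold change of 0.33, Tomm40l, a relative of the pore, one of -0.70, and Tomm6os one of 0.05 ± 1.23 (SE), also not passing.

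In the presequence translocase 3 of 6 members were lower in MLL tumors, where 12.4% of all genes were lower. Timm50, the receptor that takes presequences from TOM, was at 125 and 93.8 CPM in WT, 101 and 133 CPM in Cbfb::MYH11, 43.0, 65.4 and 46.3 CPM in MLL::AF9, and 53.3, 79.6 and 71.1 CPM in MLL::ENL (log2 fold change against Cbfb::MYH11 -0.98 ± 0.25, SE, adjusted p = 0.017). Timm23, the channel protein, was at 207 and 162 CPM in WT, 166 and 208 CPM in Cbfb::MYH11, 97.6, 116 and 94.0 CPM in MLL::AF9, and 129, 139 and 124 CPM in MLL::ENL (log2 fold change -0.69 ± 0.20, SE, adjusted p = 0.033). For both, every MLL library lay below every WT and Cbfb::MYH11 library in CPM, while their mean TPM in MLL::ENL was above that in WT. Timm17a, which lines the channel, was at 40.5 and 43.7 CPM in WT, 49.8 and 47.1 CPM in Cbfb::MYH11, 21.2, 30.2 and 20.7 CPM in MLL::AF9, and 36.2, 36.3 and 37.6 CPM in MLL::ENL (log2 fold change -0.71 ± 0.21, SE, adjusted p = 0.032).

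The other form of that subunit, Timm17b, was at 132 and 74.4 CPM in WT, 52.9 and 54.0 CPM in Cbfb::MYH11, and 42.8 to 72.0 CPM in MLL tumors, with a log2 fold change of 0.22 ± 0.27 (SE) that did not pass. Its values in the MLL tumors ran on both sides of the Cbfb::MYH11 values. Timm21, which links TOM and TIM23, and Timm44, the anchor of Hspa9 at the channel, had log2 fold changes of -0.72 ± 0.26 and -0.59 ± 0.26 and did not pass (adjusted p = 0.069 and 0.13). The carrier translocase had no member called, Timm22, its channel, at -0.49 ± 0.27 and Timm29 at -0.03 ± 0.40.

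Both subunits of the processing peptidase were lower in MLL tumors, where 12.4% of all genes were lower. Pmpca, which holds the presequence, was at 78.0 and 79.4 CPM in WT, 122 and 119 CPM in Cbfb::MYH11, 53.9, 74.4 and 65.7 CPM in MLL::AF9, and 71.3, 90.4 and 85.7 CPM in MLL::ENL (log2 fold change -0.72 ± 0.20, SE, adjusted p = 0.024). Pmpcb, which cuts it, was at 46.9 and 41.2 CPM in WT, 52.8 and 56.0 CPM in Cbfb::MYH11, 30.8, 32.8 and 26.8 CPM in MLL::AF9, and 33.8, 31.7 and 36.0 CPM in MLL::ENL (log2 fold change -0.77 ± 0.18, SE, adjusted p = 0.014). The Pmpca values of WT lay within those of the MLL tumors, and the Pmpcb values of WT lay above them.

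Of the small chaperones, 2 of 6 tested were lower, where 12.4% of all genes were lower. Timm10, which pairs with Timm9, had few counts, at 24.7 and 11.2 CPM in WT, 22.5 and 21.5 CPM in Cbfb::MYH11, 10.6, 9.73 and 5.82 CPM in MLL::AF9, and 6.87, 9.25 and 13.6 CPM in MLL::ENL (log2 fold change -1.24 ± 0.38, SE, adjusted p = 0.040). Timm8a1, which pairs with Timm13, was at 56.5 and 42.5 CPM in WT, 41.5 and 53.6 CPM in Cbfb::MYH11, 12.1, 25.8 and 17.6 CPM in MLL::AF9, and 18.01, 36.9 and 29.98 CPM in MLL::ENL (log2 fold change -1.05 ± 0.33, SE, adjusted p = 0.041). Their partners did not pass, Timm9 with a log2 fold change of -0.60 ± 0.50 and Timm13 with one of -0.07 ± 0.33, and neither did Timm8b (0.17) and Timm10b (0.52).

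How firmly these 17 calls stand depends on the Cbfb::MYH11 libraries, of which there were 2. In 14 of the 17 members Cbfb::MYH11 27 was higher than Cbfb::MYH11 30. The same held for most members that were not called, and the share over all genes was not taken. Without Cbfb::MYH11 27 the fit called 0 of the members by edgeR, with 12 members lower at an unadjusted p under 0.05 (11.6% of all genes), while 4.76% of the 16088 genes tested in that fit were called lower. Without Cbfb::MYH11 30 it called 8, and without MLL::AF9 42 it called 11.

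The difference was also taken within each fragment class, as values that were not tested. In the longer class (Cbfb::MYH11 30 against MLL::AF9 42 and MLL::ENL RL) the log2 differences of the 17 members ran from -1.60 to -0.54 with a median of -0.81, against a median of 0.0 over all genes. In the shorter class (Cbfb::MYH11 27 against MLL::AF9 2 and 47 and MLL::ENL NO and L) they ran from -2.14 to -0.62 with a median of -1.22, against 0.10 over all genes. Their sign was fixed by the separation of the groups given above. Of all 41 members tested, 31 were below 0 in the longer and 32 in the shorter class, and the share of all genes below 0 was not taken there. With the class as a term in the edgeR fit, 15 members were called lower.

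**Figure D4:**
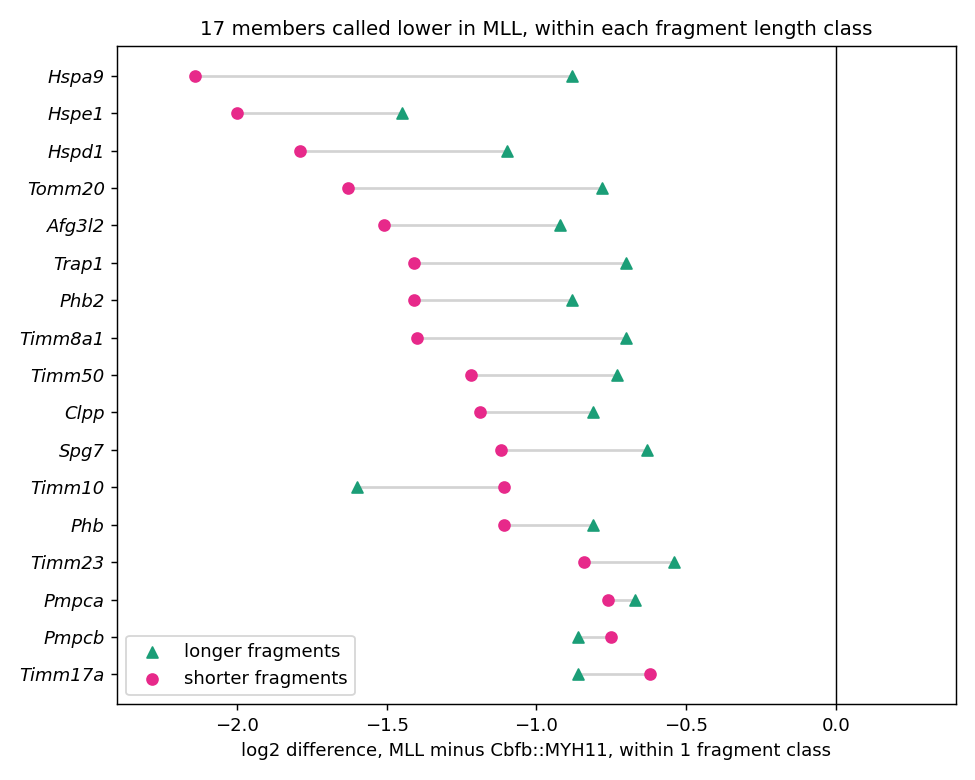
Log2 difference of MLL minus Cbfb::MYH11 (horizontal axis) for the 17 members called, within libraries of longer fragments (triangles) and of shorter fragments (circles). All points lie left of 0, which the choice of these members fixes, and for most members the circle lies farther left, as for Hspa9 with -2.14 and -0.88.

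Other features of the libraries moved with the same comparison. Of 8 neutrophil markers (such as S100a8, Ltf and Mpo) 8 were higher in MLL than in Cbfb::MYH11 tumors, with a summed level of 346 and 346 CPM in Cbfb::MYH11 and 6283 to 154500 CPM in MLL tumors, and 0 of the 8 were at 0 throughout a group. Of 4 mast cell and basophil markers 2 were lower in MLL tumors, the sum being 1752 and 2085 CPM in Cbfb::MYH11 and 3.16 to 169 CPM in MLL tumors, where Fcer1a was at 0. Of 8 monocyte and macrophage markers 4 were higher and 2 lower, with sums of 301 and 435 CPM against 741 to 1934 CPM. Of 8 erythroid markers 2 were lower, with sums of 3921 to 10200 CPM against 28.7 to 10000 CPM, and of 5 stem and progenitor markers 2 were higher and 2 lower, with sums of 578 to 733 CPM against 67.8 to 602 CPM. In the lists of eosinophils (4 markers), B cells (6) and T and NK cells (6) 1 marker each was higher, and of 4 megakaryocyte markers 1 was lower. The part of these cell types in the levels of the members was not tested. Of 8 proliferation genes (such as Mki67 and Top2a) 0 passed in this comparison by edgeR, DESeq2 or limma, with 1 at an unadjusted p under 0.05 by edgeR and a median log2 fold change of -0.38.

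Compared with WT marrow, few members passed. In Cbfb::MYH11 tumors 0 of 41 passed by edgeR while 10.5% of all genes passed, and 5 were at an unadjusted p under 0.05, as were 27.3% of all genes. DESeq2 called Pmpca higher (7.91% of all genes were higher by DESeq2) and limma called 0. The median log2 fold change was 0.12 over import and 0.14 over quality control. Phb2, Timm23 and Hspe1 had log2 fold changes of -0.01 ± 0.29, 0.02 ± 0.26 and 0.18 ± 0.43 (SE) here. The lowest adjusted p was 0.096, of Timm17b, at a log2 fold change of -0.95 ± 0.33, and the largest log2 fold change above 0 was that of Spg7 at 0.83 ± 0.30 (adjusted p = 0.11).

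In MLL::AF9 tumors Phb2 was lower than in WT (log2 fold change -1.37 ± 0.26, SE, a 2.59-fold lower level, adjusted p = 0.032), and it was the one member called of 41, as against 2.08% of all genes lower. All 3 MLL::AF9 libraries lay between 131 and 158 CPM and both WT libraries at 338 CPM or above. In 9 of the 18 alternatives tried, this call was lost, among them each fit without 1 of the WT, Cbfb::MYH11 or MLL::AF9 libraries (adjusted p between 2.2e-05 and 0.27 over the 18). Log2 fold changes of 36 members were below 0 and of 5 above, where 6882 of all 14875 genes were below 0. The median was -0.62 over import and -0.60 over quality control beside 0.08 over all genes. An unadjusted p under 0.05 was found for 17 members, and for 24.4% of all genes. Hspe1 at -1.45 ± 0.39 (SE, adjusted p = 0.072), Timm8a1 at -1.42 ± 0.38 (adjusted p = 0.073) and Hspd1 at -1.24 ± 0.42 (adjusted p = 0.12) did not pass. By DESeq2 10 members were lower, Phb2, Hspe1, Hspd1, Timm8a1, Timm13, Tomm5, Clpp, Timm50, Timm23 and Timm17a, where 6.35% of all genes were lower.

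In MLL::ENL tumors 0 of 41 members passed against WT by edgeR while 2.1% of all genes passed, and 6 were at an unadjusted p under 0.05, as were 22.0% of all genes. The log2 fold change of Hspe1 was -1.63 ± 0.39 (SE, adjusted p = 0.060) and that of Phb2 -0.98 ± 0.26 (SE, adjusted p = 0.079). The median was -0.35 over import and -0.58 over quality control, and 0.02 over all genes. DESeq2 called 3 lower, Hspe1, Phb2 and Tomm5, beside 5.99% of all genes, and limma called Hspe1. These comparisons share the 2 WT libraries, which themselves differed, WT 1 standing above WT 2 for Hspe1 and Tomm20 and below it for Hspa9 and Hspd1. In CPM, all 6 MLL libraries lay below both WT libraries for 17 of the 41 members (41.5%), against 14.5% of all genes. Mean TPM did not always follow, as given above for Afg3l2 and Trap1.

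Markers of other cells differed from WT as well. In Cbfb::MYH11 tumors 8 of 8 neutrophil markers were lower than in WT, with sums of 346 and 346 CPM against 86860 to 140000 CPM, 3 of 4 eosinophil markers were lower, with sums of 2.27 and 2.38 CPM against 6161 to 16290 CPM and Epx and Prg3 at 0, and of 4 mast cell and basophil markers 2 were higher and 1 lower. In MLL::AF9 and MLL::ENL tumors 3 and 2 of the eosinophil markers, 3 and 1 of the mast cell and basophil markers and 2 and 1 of 8 erythroid markers were lower. The erythroid sums were 42080 to 206900 CPM in WT, 28.7 to 6163 CPM in MLL::AF9 and 506 to 10000 CPM in MLL::ENL. Of the 8 proliferation genes, edgeR called Birc5 lower in Cbfb::MYH11 (adjusted p = 0.036, lost in 5 of 18 alternatives) and 0 in MLL::AF9 or MLL::ENL. Their median log2 fold change against WT was -0.30 in Cbfb::MYH11, -0.85 in MLL::AF9 and -0.59 in MLL::ENL. In MLL::AF9 4 were lower at an unadjusted p under 0.05 by edgeR, while DESeq2 called 3 lower and limma 2. In MLL::ENL these counts were 3, 1 and 0. The part of these cell types and of proliferation in the levels against WT was not tested.

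**Figure D5:**
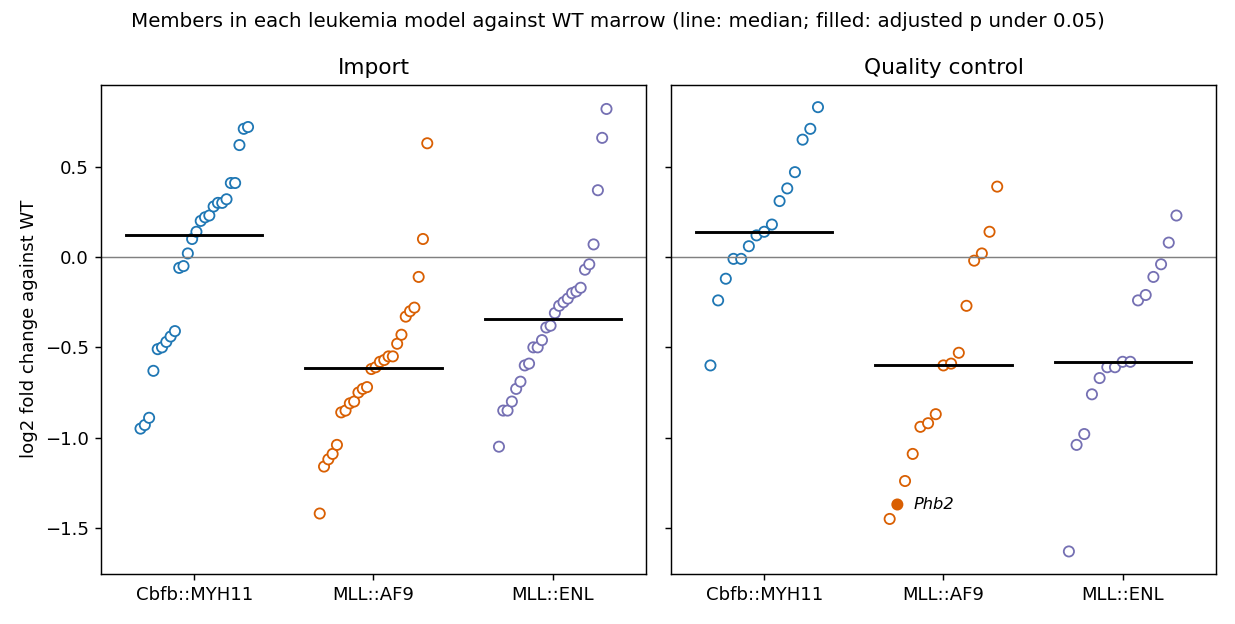
Log2 fold change against the 2 WT libraries (vertical axis) of the 41 members tested in each leukemia model, import on the left and quality control on the right, with the median as a line. The points of Cbfb::MYH11 lie on both sides of 0 (medians 0.12 and 0.14), most MLL points lie below it, and the only filled point, at an adjusted p under 0.05, is Phb2 in MLL::AF9.

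Between the MLL models 0 of 41 members passed by edgeR, DESeq2 or limma, with 1 at an unadjusted p under 0.05 (10.2% of all genes), and 0.0134% of all genes passed. That member was Timm17a, at 20.7 to 30.2 CPM in MLL::AF9 and 36.2 to 37.6 CPM in MLL::ENL (log2 fold change -0.61 ± 0.22, SE, adjusted p = 0.36). Log2 fold changes of 25 of 26 import members were below 0, the exception being Timm29 at 0.40 ± 0.40, and of 9 of 15 quality control members. Over all genes 7565 of 14875 were below 0, with a median of -0.01. The members were measured in the same libraries, so their signs are not separate results.

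The levels of import and of quality control in each library were also summed. Quality control came to 2059 and 2021 CPM in WT, 2151 and 2691 CPM in Cbfb::MYH11, 841, 1296 and 1155 CPM in MLL::AF9, and 937, 1438 and 1296 CPM in MLL::ENL. Import came to 2472 and 1676 CPM in WT, 1914 and 2255 CPM in Cbfb::MYH11, 1213, 1441 and 1231 CPM in MLL::AF9, and 1369, 1733 and 1631 CPM in MLL::ENL. In CPM the sums of quality control did not overlap between MLL and the other groups, whereas the import sum of MLL::ENL RL was above that of WT 2. Summed as TPM, quality control was at 793 and 1186 in WT, 1663 and 1882 in Cbfb::MYH11 and 436.5 to 1178 in MLL tumors. In TPM the MLL tumors thus overlapped WT but not Cbfb::MYH11. The import sums of MLL::AF9 47 (2073 TPM) and MLL::ENL RL (2158 TPM) were above that of Cbfb::MYH11 30 (2017 TPM). The quality control sum is weighted towards members with high counts that were called above, such as Hspd1, Hspe1, Hspa9 and Phb2. The values of Clpb, Clpx, Yme1l1, Oma1 and Htra2 each overlapped between MLL and both other groups. MLL::AF9 2 and MLL::ENL NO had the lowest sums of quality control, and in the same libraries transcripts of the mitochondrial genome took 10.2% and 10.6% of the counts, against 0.766% to 6.93% in the other 8. The part of these transcripts in the levels was not tested. Leaving them out of the fit together with hemoglobin, which bears on the scaling of the libraries, again called 17 members lower. Of the 17, the fit without MLL::AF9 2 still called 17 lower and that without MLL::ENL NO 16.

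For 6 pairs of partners the ratio of their TPM was taken in each library, which compares 2 genes within 1 library, and the 8 tumors were set against the 2 WT libraries by an exact two-sided permutation test over 45 arrangements, whose smallest p is 0.044. After adjustment over the 6 ratios none could pass unless all 6 reached that p, and the adjusted p lay between 0.60 and 0.62. The 8 tumors were pooled here although the ratios of the models lay apart in some pairs. Clpp to Clpx was 4.71 and 3.31 in WT, 4.17 and 4.42 in Cbfb::MYH11, 2.06, 1.61 and 1.25 in MLL::AF9, and 1.64, 2.31 and 3.59 in MLL::ENL (exact permutation p = 0.27). MLL::ENL L was the one MLL tumor within the range of the WT libraries. Timm17a to Timm17b was 0.762 and 1.07 in WT, 1.86 and 1.92 in Cbfb::MYH11, and 0.593 to 1.19 in the MLL tumors (exact permutation p = 0.62), so that the Cbfb::MYH11 tumors stood above all other libraries.

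The ratio of Afg3l2 to Spg7 was 1.10 and 1.06 in WT, 1.10 and 1.02 in Cbfb::MYH11, 0.460, 0.894 and 0.931 in MLL::AF9, and 0.788, 1.04 and 0.817 in MLL::ENL (exact permutation p = 0.13). MLL::AF9 2 was lowest here. Phb to Phb2 lay between 0.367 and 0.869 over all libraries (exact permutation p = 0.31) and Pmpca to Pmpcb between 0.694 and 1.58 (exact permutation p = 0.40). Hspd1 to Hspe1 ran from 0.194 in MLL::AF9 2 to 0.828 in MLL::ENL NO (exact permutation p = 0.53), so that the pair did not keep a fixed ratio within the MLL tumors.

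Promoter windows were found for 37 of the 43 members, 40 windows in all, and were searched on both strands for 4 motifs that do not overlap one another in these windows. The E-box CACGTG, which MYC and related factors bind, was in 9 of the 40 windows (22.5%) and in 7.15% of all 32851 windows. Of the 15 called members with a window, 5 held it: Hspd1, Tomm20, Timm10, Phb and Timm8a1. The members tested but not called that held it were Timm9, Lonp1 and Tomm6os. Tomm20l, which was not tested, held it as well. The heat shock element GAANNTTC was in 3 member windows (7.5%, and 7.86% of all), those of Hspe1, Hspd1 and Timm9. GCGCATGC, the core that NRF1 binds, was in 2 (5.0%, and 2.71% of all), those of Clpx and Timm13. TTGCATCA, a C/EBP-ATF element of the stress response, was in 0 member windows and in 0.895% of all. These are matches of letters only.

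Other genes of the same pathways were taken as lists. Of 20 other genes of import and sorting, 1 was higher and 1 lower in MLL than in Cbfb::MYH11 tumors, with a median log2 fold change of -0.53. Over all genes 13.2% were higher and 12.4% lower. The gene that was lower was Samm50, the core of the machinery that inserts barrel proteins in the outer membrane, with mean levels of 289 CPM in Cbfb::MYH11, 113 CPM in MLL::AF9 and 145 CPM in MLL::ENL (log2 fold change -1.17 ± 0.25, SE, adjusted p = 0.0075). The gene that was higher was Dnajc15, a J protein of the TIM23 motor, at 8.16, 27.3 and 41.9 CPM (log2 fold change 2.05 ± 0.65, SE, adjusted p = 0.043). The call of Dnajc15 was lost in 9 of 18 alternatives, among them the fits without either WT library, Cbfb::MYH11 27, MLL::AF9 2 or any 1 MLL::ENL library (adjusted p between 0.0031 and 0.18 over the 18).

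Of 17 other quality control genes tested, 5 were lower and 0 higher in the same comparison by edgeR, where 12.4% of all genes were lower. There was 1 higher at an unadjusted p under 0.05 and 0 higher by DESeq2 or limma, and the median log2 fold change was -0.68. The 5 were Pitrm1, which degrades cleaved presequences, Stoml2, a scaffold of inner membrane proteases, Chchd3, a subunit of the cristae junction complex, Afg3l1, a relative of Afg3l2, and Ddit3, a transcription factor of the stress response. Pitrm1 had mean levels of 128 CPM in Cbfb::MYH11, 28.7 CPM in MLL::AF9, 37.8 CPM in MLL::ENL and 54.5 CPM in WT (log2 fold change -1.95 ± 0.35, SE, adjusted p = 0.0036). Without Cbfb::MYH11 27 the count fell to 1 and without Cbfb::MYH11 30 to 3, and without Cbfb::MYH11 27 that of import and sorting to 0 lower and 0 higher (1 lower and 1 higher at an unadjusted p under 0.05).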

How the data were processed

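RNA was measured by sequencing in 10 mice, with 1 library per mouse, 2 WT, 2 Cbfb::MYH11, 3 MLL::AF9 and 3 MLL::ENL. The authors aligned reads with STAR to mm10 and quantified genes with RSEM (versions not given in the sources used here), and deposited expected counts and TPM for 50600 entries. Deposited expected counts were rounded to whole numbers. The TPM values of the authors' tables, normalized within each library for depth and effective length, served for levels between genes and for ratios. Counts were fitted for all 10 libraries at once with edgeR 4.0.16 in R 4.3.3 (TMM, genes kept by filterByExpr, quasi-likelihood test, 6 residual degrees of freedom), with Benjamini-Hochberg adjustment over 14875 genes and a threshold of 0.05. The procedure was tested on simulated data. Alternatives were DESeq2 1.42.0, limma 3.58.1 with voom, other scalings and filters, only the groups compared, and each library left out. The fragment class (length minus effective length above or below 240 bases) was added after seeing the data.

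MLL against Cbfb::MYH11 means the mean of both MLL groups minus Cbfb::MYH11. Values in every library and fold changes were printed for members called in at least 1 of the 5 comparisons, and levels or fold changes for the defining members of each role. The members and lists were chosen with earlier results of these data known. Replicates are separate mice. The depth of 12134911 to 20510567 counts per library leaves Timm10 and Timm9 with few counts. Columns of FPKM were not used. Names of the deposited MLL::AF9 tables and sample titles give the numbers 42 and 47 interchanged, so those mice, but not their group, are uncertain. Promoter windows come from RefSeq (GRCm38.p6) and were matched by symbol for 37 of 43 members.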

Additional observations from a re-analysis of the deposited data

Results flagged for a closer look

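In 17 members the change from WT differed between the leukemia models, by the direct test of the MLL tumors against the Cbfb::MYH11 tumors in edgeR (adjusted p between 0.0045 and 0.041). The log2 difference was -1.72 for Hspe1, -1.55 for Hspa9, -1.45 for Hspd1 and -1.07 for Trap1 among the chaperones. It was -1.17 for Phb2 and -0.93 for Phb, and -1.23 for Afg3l2, -0.99 for Clpp and -0.88 for Spg7 among the proteases. On the import side it was -1.27 for Tomm20, -0.98 for Timm50, -0.71 for Timm17a, -0.69 for Timm23, -1.24 for Timm10, -1.05 for Timm8a1, -0.77 for Pmpcb and -0.72 for Pmpca. All 6 MLL libraries lay below both Cbfb::MYH11 libraries in each of the 17, and none of these differences passed without Cbfb::MYH11 27 (12 members lower at an unadjusted p under 0.05).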

How the results depend on the processing

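No paired analysis was made because the groups compared were separate mice that the labels do not pair. The count of members lower in MLL against Cbfb::MYH11 was 17 and lay between 0 and 18 over the fits without 1 library, with 0 without Cbfb::MYH11 27, 8 without Cbfb::MYH11 30 and 11 without MLL::AF9 42. The cause was not tested, and a lone Cbfb::MYH11 library is assumed to vary like the other groups. Over all genes that comparison called 3806 genes, 1439 without Cbfb::MYH11 27 and 2221 without Cbfb::MYH11 30. Import members fell from 8 to 4 with no low count filter, and lay between 0 and 9 without 1 library. Of the 306 fold changes of the 17 members under the alternatives, 0 reversed, as the separation of the groups fixes, and 51 no longer passed, 17 of them without Cbfb::MYH11 27. Members lower in MLL::AF9 against WT were 10 by DESeq2, 3 with no low count filter, 0 with only the groups compared and between 0 and 2 without 1 library, and in MLL::ENL against WT 3 by DESeq2, 1 by limma, 1 with no low count filter and between 0 and 1 without 1 library. In Cbfb::MYH11 against WT, DESeq2 called 1 higher. The TPM ratios could not have passed without 1 library (smallest p 0.056 without a tumor and 0.22 without a WT library, before adjustment). Without WT 1 those of Hspd1 to Hspe1 and of Pmpca to Pmpcb changed sign (log2 differences of tumors minus WT between -0.12 and 0.86, and between -0.25 and 0.91, without 1 library). Quality control members fell from 9 to 0 without Cbfb::MYH11 27, and the remaining counts of members kept within 1.5 times of their value. Of 890 counts of the other lists under the alternatives 76 moved by over 1.5 times, at most from 0 to 8 (mitochondrial genome entries, in Cbfb::MYH11 against WT with only the groups compared and in MLL::ENL against WT by DESeq2).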

Other observations

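Among 14 cytosolic chaperones, which fold proteins outside the mitochondrion, 5 were lower in MLL than in Cbfb::MYH11 tumors and 0 higher by edgeR (0 higher at an unadjusted p under 0.05 and by DESeq2 or limma), where 12.4% of all genes were lower, with a median log2 fold change of -0.84. They were Hsph1, an Hsp110 exchange factor, and Cct2, Cct3, Cct5 and Tcp1, subunits of the cytosolic chaperonin. Mean levels of Cct5 were 471 CPM in WT, 605 CPM in Cbfb::MYH11, 242 CPM in MLL::AF9 and 244 CPM in MLL::ENL (log2 fold change of MLL against Cbfb::MYH11 -1.32 ± 0.25, SE, adjusted p = 0.0048). Those of Cct3 were 259, 413, 137 and 160.1 CPM in the same order (log2 fold change -1.48 ± 0.31, SE, adjusted p = 0.0076). Without Cbfb::MYH11 27 the count was 1 and without Cbfb::MYH11 30 it was 3. Against WT, Dnajb1, a J protein partner of Hsp70, was lower in MLL::ENL tumors, with mean levels of 62.8 CPM in MLL::ENL and 150.0 CPM in WT (log2 fold change -1.26 ± 0.25, SE, adjusted p = 0.040). This call was lost in 9 of 18 alternatives, among them the fits without either WT or either Cbfb::MYH11 library, without MLL::AF9 42 and without any 1 MLL::ENL library (adjusted p between 0.00066 and 0.30 over the 18).

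Of 15 mitochondrial genome entries tested of 37, 0 passed in any of the 5 comparisons by edgeR, with 5, 5 and 8 at an unadjusted p under 0.05 against WT in the Cbfb::MYH11 tumors, the MLL::AF9 tumors and the MLL::ENL tumors, and 0 between the models. DESeq2 called 3, 5 and 8 higher against WT, and limma 0, 0 and 1. Other edgeR fits also called entries higher, 3, 4 and 7 with no low count filter, 8 in Cbfb::MYH11 with only the groups compared, and 3 in Cbfb::MYH11 and 3 in MLL::ENL without MLL::AF9 2. Their median log2 fold change against WT was 2.15 in Cbfb::MYH11, 1.97 in MLL::AF9 and 2.42 in MLL::ENL, and 0.22 in MLL against Cbfb::MYH11.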
